A study of Eriocheir sinensis with 6 samples.

Results

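Accessible regions that lie inside genes, away from every annotated transcription start site, were examined in inter-molt muscle of the Chinese mitten crab (Eriocheir sinensis). The regions described here had an ATAC-seq peak in all 3 crabs, overlapped a gene with a span under 50 kb and no gene of 50 kb or more, and did not touch the 2 kb on either side of any transcription start site (TSS). They are called gene-body regions below, and a gene that holds one is called its host. The TSS is the start of the gene as annotated, which is not always where transcription starts. Merging the peaks of the 3 crabs gave 85139 regions, of which 27373 were shared by the 3 crabs and 18305 of those lay on the 72 placed sequences of the assembly. Of these 18305 shared regions, 2282 (12.5%) were gene-body regions, 5530 (30.2%) touched a promoter, 2301 (12.6%) lay in genes of 50 kb or more, and 8192 (44.8%) were intergenic. The rule used peak positions and gene coordinates only, and expression was not used to choose the regions. A peak is called for its enrichment over the local background. Fold enrichment was therefore limited from below by the peak calling, in these and in the other shared regions.

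The 3 crabs were healthy, wild-type and untreated animals in the inter-molt stage (period C), and each gave 1 ATAC-seq and 1 RNA-seq library from its muscle, 6 libraries in all. There was no second stage or treatment among them. The study's methods describe juvenile crabs, and the labels give no age. Names of peaks within the third ATAC-seq list carry a crab number other than 3, so that values pairing both assays of crab 3 rest on the sample label. The replicates are separate animals, and the files pair no gene with a name, so that the muscle label was not checked against marker genes. The ATAC-seq libraries of crabs 1, 2 and 3 had 57320, 49574 and 56919 peaks, and the RNA-seq libraries had 6772294, 7391379 and 7920094 reads assigned to genes.

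ATAC-seq marks places where the Tn5 transposase can reach DNA that is not wrapped in nucleosomes. In animals such places outside promoters include enhancers, which can act from within an intron of the gene they control or of a neighbour, as well as alternative start sites and unannotated genes. Transcription itself also opens the body of a gene, since polymerase displaces nucleosomes as it passes. The gene tables give a start, an end, a strand and the length of the model, so a region can be placed along its gene, but exon and intron are not given and cannot be told apart here.

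Gene-body regions were spread over the whole assembly. All 72 placed sequences held at least 7, the median was 32.5 per sequence, and CM024135.1 held the most with 80. Their width ran from 212 to 3461 bases with a median of 614 bases, against 751 bases for shared promoter regions, 614 for shared regions in genes of 50 kb or more and 618 for shared intergenic regions. A region with more than 1 summit in at least 1 crab made up 51.4% of gene-body regions and 68.5% of shared promoter regions. Most places of this kind were not found in every crab. Among all regions that met the position rule, 5897 (58.1%) had a peak in 1 crab, 1978 (19.5%) in 2 and 2282 (22.5%) in 3, while the share found in all 3 was 38.8% at promoters, 23.8% in genes of 50 kb or more and 25.9% between genes.

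Fold enrichment, the authors' ratio of fragments piled up at a summit to the local background, was modest for most gene-body regions and high for few. In crab 1 it ran from 1.54 to 41.2 with a median of 3.94. In crab 2 it ran from 1.60 to 42.8 with a median of 3.83, and in crab 3 from 1.61 to 36.4 with a median of 4.82. The middle of the distribution was narrow, with quartiles of 3.14 and 5.15, 3.09 and 4.94, and 3.57 and 6.51 in crabs 1, 2 and 3. The median −log10 q of their peaks was 10.5, 7.73 and 16.1. The regions kept much of their order between crabs, with Spearman rho of 0.695, 0.700 and 0.658 for crabs 1 and 2, 1 and 3, and 2 and 3 over 2282 regions, a description in which crab pairs share the regions.

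Gene-body regions were as enriched as other shared regions to within a small margin. The median log2 fold enrichment was lower than that of shared promoter regions by a mean difference of -0.07 ± 0.06 (SD, n = 3 crabs), and in crab 2 both medians were 3.83. The difference from shared regions in genes of 50 kb or more was -0.05 ± 0.01, with the same sign in all 3 crabs. The difference from shared intergenic regions was -0.09 ± 0.05, again of 1 sign in all 3 crabs. An exact two-sided sign-flip permutation test over 3 crabs cannot go below p = 0.25, and each of these differences gave p = 0.25.

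The crabs differed in the level of fold enrichment, and regions still differed between crabs once each library was centred. As deposited, 1437 of the 2282 gene-body regions had their highest fold enrichment in crab 3, against 417 (18.3%) in crab 1 and 428 (18.8%) in crab 2. After each library was centred on its own median over shared regions, the counts were 628, 830 and 824 in crabs 1, 2 and 3. On that centred scale the range between the 3 crabs had a median of 0.46 in log2, and 135 gene-body regions (5.92%) ranged at least 2-fold, against 6.69% of all shared regions on placed sequences. The share was therefore near that of shared regions in general.

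Among the regions with a mean fold enrichment of at least 8, 4 ranged most between crabs, all 4 on different sequences. The region at CM024118.1:13718627-13720146 had fold enrichments of 3.07, 16.8 and 4.94 in crabs 1, 2 and 3, the largest centred range of all gene-body regions at 2.52 in log2. Its host evm.TU.CM024118.1.329 had 3.81, 5.24 and 1.21 FPKM. The region at CM024129.1:172579-172910 had 4.05, 17.8 and 9.36 (range 2.20), and its host evm.TU.CM024129.1.8 had 15.3, 13.1 and 19.1 FPKM. Both regions were highest in crab 2, where the former host also had its most RNA, while for the latter the order of crabs depends on the scaling, with 15.9, 16.7 and 9.38 on plain read totals. At CM024101.1:2887417-2887797 the values were 13.7, 5.78 and 5.54 (range 1.56), and the host evm.TU.CM024101.1.82 had 8.21, 4.49 and 2.97 FPKM, highest in the same crab. At CM024126.1:2692984-2693546 they were 10.5, 14.6 and 6.69 (range 1.45), in a locus that the authors added to the annotation and that had at most 3 reads.

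Gene-body regions occurred along the whole gene. The 2282 regions made 2349 pairs of region and host, since 2222 lay in 1 gene, 53 in 2 and 7 in 3 overlapping genes. Their midpoints had a median relative position of 0.535, with quartiles of 0.323 and 0.746, where 0 is the TSS and 1 the end of the gene. The median distance from the TSS was 10.6 kb, with quartiles of 5.72 and 18.3 kb. Since the rule removes the 2 kb beside each TSS, positions were read against the 178 Mb of gene body that could hold such a region, the body outside every promoter and every gene of 50 kb or more. This body was divided at its midpoint in each gene. Of the pairs, 1224 lay in the front part and 1125 in the rear part, a ratio of 1.09. The rear count includes 58 pairs whose midpoint lay beyond the gene end. That small difference did not hold for the peaks of each crab taken alone, for which the log2 ratio of front to rear was -0.13, -0.08 and -0.03.

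The density was highest in the second to sixth of 10 equal parts of the gene, at 13.6 to 15.5 regions per Mb, and lowest in the eighth and ninth at 10.5 and 9.91. The last of the 10 parts had 11.8 per Mb. A region in overlapping genes is counted here once for each gene. By distance from the TSS, the density was 8.01 per Mb from 2 to 3 kb and between 12.8 and 14.5 in every longer interval up to 50 kb. The first of those intervals is narrowed by the rule, which drops any region that touches the 2 kb zone. By distance from the gene end, the last 1 kb held 186 regions at 14.6 per Mb and the 1 kb before it 89 regions at 6.94 per Mb.

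**Figure D1:**
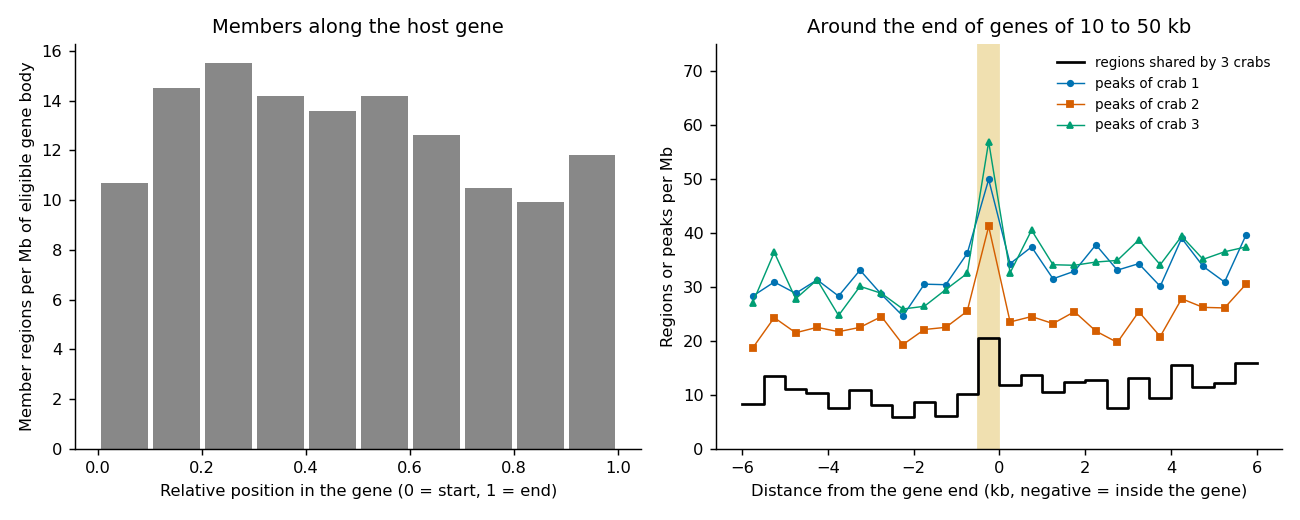
Left, gene-body regions per Mb of gene body that could hold one, in 10 equal parts of the host gene from start to end, where the bars stand between 9.91 and 15.5. Right, regions shared by 3 crabs (black steps) and peaks of each crab (points joined by lines) per Mb in 500-base windows around the end of 7993 genes of 10 to 50 kb, where each crab and the shared regions have their highest value in the last 500 bases (shaded).

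The end of the gene stood out at finer scale. In 7993 genes of 10 to 50 kb, counting shared regions outside promoters by midpoint, the last 500 bases held 64 at 20.6 per Mb and the 2 kb before them 109 at 7.62 per Mb, a ratio of 2.70. The next 500 bases, beyond the gene end, held 11.8 per Mb. Among each crab's own peaks, the last 500 bases held 155, 128 and 177 peaks at 49.9, 41.2 and 56.9 per Mb, against 30.1, 22.2 and 28.4 per Mb in the 2 kb before. The log2 ratio was 0.73, 0.89 and 1.00 in crabs 1, 2 and 3 (mean 0.87 ± 0.14, SD, n = 3, exact sign-flip permutation p = 0.25, the smallest 3 crabs can give). The excess was larger in weakly expressed genes. Genes with a mean of up to 1 FPKM had 28.9 per Mb in the last 500 bases and 6.55 in the 2 kb before, a ratio of 4.40, and in genes above 1 FPKM the ratio was 1.51. These strata rest on 43 and 21 regions, and their difference was not tested. The ratio was 2.83 in gene models and 2.30 in loci added by the authors. The length is a multiple of 3 in 73.3% of gene models and in 31.6% of added loci. The start and end of a model are therefore not always those of its transcript. Distances from the TSS and promoter peaks carry the same limit.

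The 1612 host genes had spans from 2195 to 49852 bases with a median of 21.2 kb. Of the 14904 genes with at least 1 kb of body that could hold such a region, 1604 (10.8%) were hosts. Long genes were hosts more often, from 2.60% of genes under 5 kb to 35.0% of genes of 40 to 50 kb, while the number of regions per Mb ran between 10.8 and 16.9 over the span classes. Most hosts, 1177 (73.0%), held 1 gene-body region, 435 held at least 2, and 35 held at least 5. Neighbouring regions of 1 gene were a median of 4.82 kb apart, with quartiles of 1.62 and 8.32 kb over 737 pairs of neighbours.

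Host genes were more highly expressed than genes of the same kind without any peak in the body. Expression is given in FPKM, fragments scaled to the length of the gene model and to the library, as deposited. The median over hosts was 2.35, 2.36 and 1.87 FPKM in crabs 1, 2 and 3, against 0.892, 1.01 and 0.635 FPKM over the 9835 genes with no peak in the body in any crab. At least 1 FPKM in all 3 libraries was reached by 833 hosts (51.7%), by 3830 of the genes with no peak in the body (38.9%) and by 32.7% of all 28671 genes. No read in any library was found for 15.1% of hosts and for 22.2% of the genes with no peak in the body. In muscle taken as a whole, a gene that is on in fewer cells and a gene with less RNA per cell cannot be told apart.

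On the log2(FPKM + 1) scale, which understates the change of low genes, the median of hosts exceeded that of genes with no peak in the body by 0.82, 0.74 and 0.81 in crabs 1, 2 and 3 (mean 0.79 ± 0.05, SD, n = 3). Taken within classes of gene span the difference was 1.11, 1.07 and 1.05 (mean 1.08 ± 0.03). Hosts more often had a shared peak at their promoter, 34.1% against 23.0%. Among genes with such a promoter peak, the difference within span classes was 0.86 ± 0.02 (549 hosts), and among genes without it 0.71 (1063 hosts; 0.70 to 0.71 in the 3 crabs). It was 1.37 ± 0.08 among gene models and 0.17 ± 0.08 among the loci added by the authors, which were 18.5% of hosts. All of these differences were positive in all 3 crabs, and the exact sign-flip permutation test gave p = 0.25 for each, the smallest value that 3 crabs allow.

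The shares lay furthest apart in the longer genes, a difference between span classes that was not tested. Below 5 kb, 43.3% of hosts and 36.1% of genes with no peak in the body had at least 1 FPKM in all 3 libraries, and from 5 to 10 kb the shares were 41.6% and 42.7%. From 20 to 30 kb they were 53.2% and 29.6%, and from 40 to 50 kb 57.9% and 18.9%. In these classes the share of hosts stayed within 41.6% to 57.9%, and the share of genes with no peak was lowest in the longest genes. Expression was also higher in genes with more gene-body regions. Genes with 1, 2, 3 and at least 4 had median FPKM (mean of the 3 crabs) of 1.86, 3.75, 5.67 and 16.6, and 47.4%, 58.8%, 64.9% and 75.6% of them had at least 1 FPKM in all 3 libraries. Genes without a gene-body region had a median of 0.981 FPKM where no crab had a peak in the body (9835 genes) and of 1.60 FPKM where 1 or 2 crabs did or the peaks of the crabs did not overlap (3465 genes, 44.7% with at least 1 FPKM in all 3 libraries). Median spans also differed, from 8.45 kb for genes with no peak in the body to 38.9 kb for genes with at least 4 regions.

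**Figure D2:**
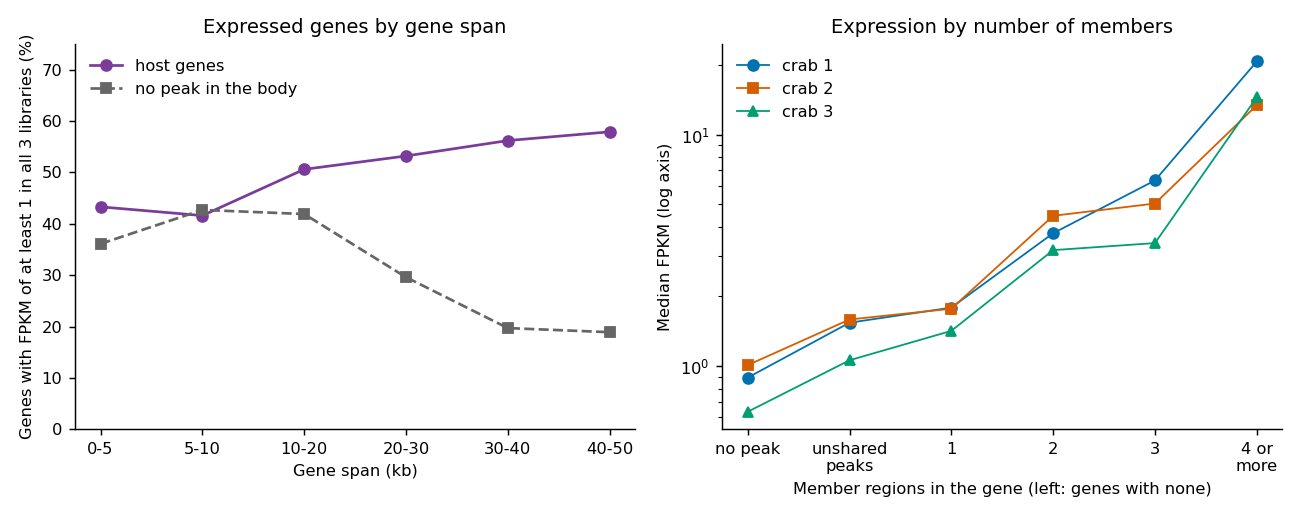
Left, share of genes with at least 1 FPKM in all 3 RNA libraries by gene span, for host genes (circles) and genes with no peak in the body (squares), which part above 10 kb and stand at 57.9% and 18.9% from 40 to 50 kb. Right, median FPKM (log axis) in each crab for genes with no peak in the body, with unshared peaks only, and with 1, 2, 3 and 4 or more gene-body regions, where each crab has its lowest median in genes with no peak and its highest at 4 or more.

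Measured per Mb, gene-body regions were densest in the most abundant genes. Genes without a read had 9.18 regions per Mb, genes of up to 1 FPKM 10.2, and genes of 1 to 10 FPKM 11.5. The density was 22.4 per Mb from 10 to 100 FPKM, 40.4 from 100 to 1000 FPKM and 65.7 in the 114 genes above 1000 FPKM. A region in overlapping genes is counted once for each gene. Shared regions in genes of 50 kb or more ran alongside, from 8.62 per Mb in genes without a read to 74.8 above 1000 FPKM. This order was therefore not particular to shorter genes, though the last value rests on 31 regions in 6 genes. The share of genes that were hosts ran from 8.05% to 23.7% over the same classes.

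**Figure D3:**
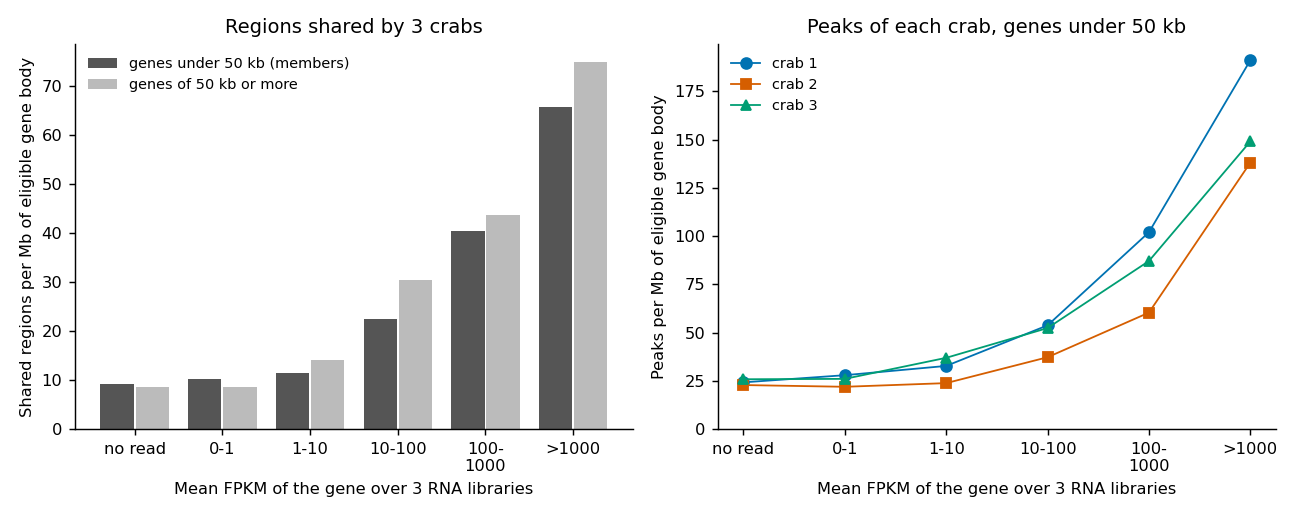
Left, shared regions per Mb of gene body by class of mean FPKM, for genes under 50 kb (dark bars, 9.18 to 65.7) and genes of 50 kb or more (light bars, 8.59 to 74.8). Right, peaks of each crab per Mb of body in genes under 50 kb, where all 3 crabs have their highest value above 1000 FPKM.

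Genes above 10 FPKM had 26.3 gene-body regions per Mb and genes of up to 1 FPKM 9.78, a ratio of 2.69. From each crab's own peaks and own FPKM, the log2 ratio was 1.30, 0.91 and 1.27 (mean 1.16 ± 0.22, SD, n = 3, exact sign-flip permutation p = 0.25). The ratio was 1.59 among genes with a shared promoter peak and 2.43 among genes without. It was 3.79 in genes of 20 to 50 kb and 1.52 in shorter ones, and 3.19 in gene models against 2.31 in added loci. With expression rescaled to the plain number of recovered reads the ratio was 2.77.

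The regions in abundant genes were more numerous per Mb but not more enriched. The median fold enrichment was 4.35 ± 0.190 (SD, n = 3 crabs) in hosts without a read, 4.38 ± 0.728 from 1 to 10 FPKM and 3.01 ± 0.274 above 1000 FPKM. The number of fragments and the local background behind that ratio can be recovered from the deposited fold enrichment and −log10 p, and both were higher in expressed genes. The median background at the summit was 4.80 ± 0.439 fragments in hosts without a read and 18.6 ± 5.17 above 1000 FPKM, and the median pileup was 27.0 ± 1.73 and 62.3 ± 24.5 fragments. Per region, the Spearman rho with host FPKM was -0.203, -0.218 and -0.0620 for fold enrichment in crabs 1, 2 and 3. For local background it was 0.472, 0.419 and 0.498, and for pileup 0.321, 0.224 and 0.398, over at least 2279 regions that share their libraries and, in part, their hosts. With fold enrichment and FPKM averaged over crabs first, rho was -0.168 for gene-body regions and also for shared regions in genes of 50 kb or more. The part that the local background plays in the lower fold enrichment and in the number of peaks called was not tested.

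**Figure D4:**
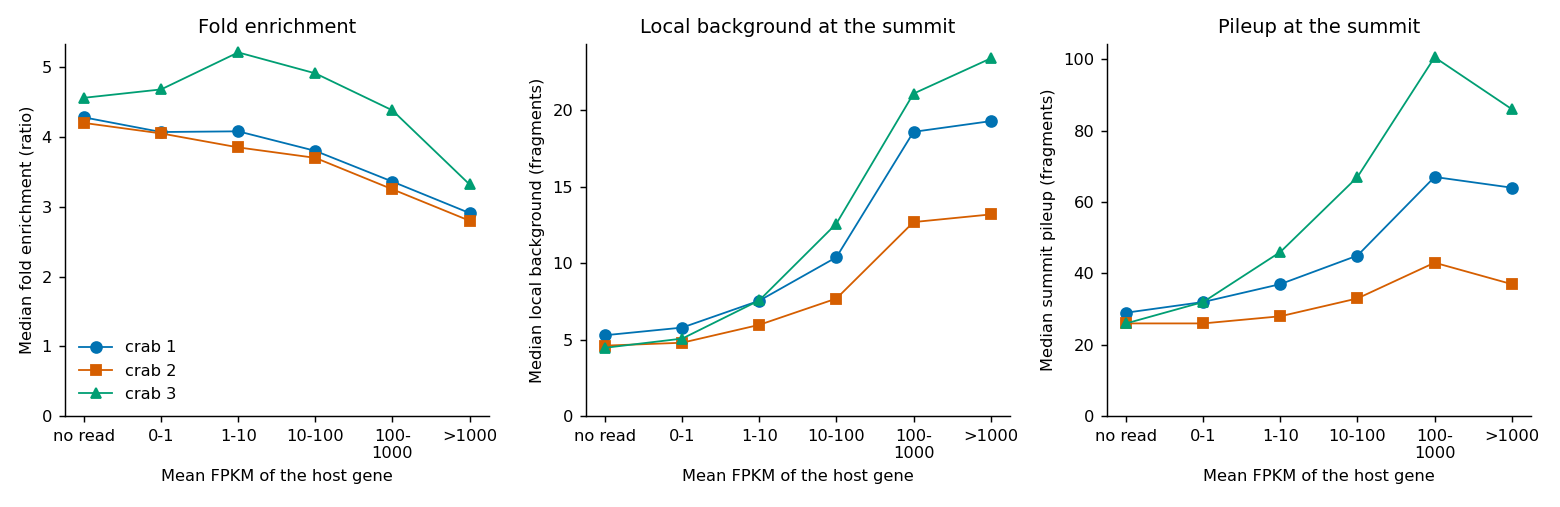
Median fold enrichment, local background and pileup at the summit of gene-body regions in each crab (points) by mean FPKM of the host, both latter quantities in fragments and not scaled for depth. In each crab the fold enrichment is lowest above 1000 FPKM (2.91, 2.80 and 3.32), and the background is highest there (19.3, 13.2 and 23.4 fragments).

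Regions in hosts without a read had the highest median relative position among the expression classes. This was not tested, and values per crab are not given. In hosts without a read the median relative position was 0.640. There 127 pairs of region and host lay in the front part of the body against 193 in the rear part. Up to 1 FPKM the median was 0.564 with 250 and 252 pairs, and from 1 to 10 FPKM it was 0.512 with 393 and 341. From 10 to 100 FPKM the median was 0.482 with 322 and 242 pairs. From 100 to 1000 FPKM it was 0.516 with 90 and 66, and above 1000 FPKM it was 0.517 with 42 and 31. Fold enrichment had little order along the gene, with a rho of -0.0286 between mean fold enrichment and relative position over 2349 pairs.

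The 20 strongest gene-body regions lay mostly in genes that were silent or nearly so, with a median host level of 0.260 FPKM. Of the 20 strongest by mean fold enrichment, 4 had a host with at least 1 FPKM in all 3 libraries and 7 (35.0%) had a host without a read. Over all 2282 the same shares were 57.9% and 12.5%, counting the most expressed host of each region. Among the 10 strongest, 5 hosts had no read, 8 averaged below 1 FPKM, and 1 had a shared promoter peak. These 10 regions lay 5.02 to 33.5 kb from the TSS and were 318 to 994 bases wide, 7 of them 500 bases or less. All regions were also ranked by fold enrichment and divided into 5 equal groups. In the strongest group 49.9% of regions had a host with at least 1 FPKM in all 3 libraries, and in the weakest 68.2%. The median host levels were 2.20 and 9.60 FPKM. The groups between them, from stronger to weaker, had 58.6%, 59.0% and 53.9%, with medians of 3.57, 3.88 and 3.11 FPKM, so there was no steady order.

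The strongest region, CM024135.1:14076351-14076708, had fold enrichments of 41.2, 42.8 and 36.4 in crabs 1, 2 and 3 (mean 40.1 ± 3.34). It lay 7.94 kb from the TSS of evm.TU.CM024135.1.342, a gene of 12.5 kb on the plus strand with no read in any library. The next strongest, CM024151.1:3918105-3918458, had 36.8, 30.3 and 27.7, and lay 15.2 kb into the 27.5 kb gene evm.TU.CM024151.1.117, which also had no read. The third, CM024135.1:30470551-30471154, had 30.3, 24.1 and 22.0 at the middle of evm.TU.CM024135.1.947 (relative position 0.519), a gene with 2, 3 and 6 reads. The values of these 3 regions in every crab were far above the medians of 3.94, 3.83 and 4.82.

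The other 7 of the 10 strongest had mean fold enrichments between 14.1 and 17.2. The region at CM024114.1:3814378-3814708 had 23.4, 12.8 and 15.4 and lay 0.150 kb before the end of evm.TU.CM024114.1.97, which had no read. The region at CM024160.1:9440882-9441199 had 15.3, 14.0 and 17.2 and lay 5.02 kb from the TSS of evm.TU.CM024160.1.238, a 45.8 kb gene without a read. A locus added by the authors, also without a read, held the region CM024119.1:959334-959682 with 9.32, 15.7 and 19.2. The hosts of CM024108.1:3246315-3246702 (11.7, 20.5 and 15.6) and CM024127.1:10691378-10691841 (21.6, 10.4 and 11.3) had at most 2 reads in a library. These hosts are evm.TU.CM024108.1.66 and evm.TU.CM024127.1.355, and neither gene came near 1 FPKM.

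An expressed host was found for CM024152.1:3116262-3116874, with fold enrichments of 17.2, 13.4 and 12.9, in evm.TU.CM024152.1.119, which had 3.09, 4.49 and 7.46 FPKM. The tenth region, CM024130.1:5459479-5460472, had 13.3, 14.6 and 14.5 in another added locus, which had 0.774, 0 and 2.80 FPKM and a shared promoter peak. Across these 10 regions the spread between crabs was smallest here, at an SD of 0.721, and largest for the region in evm.TU.CM024127.1.355, at 6.23.

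At least 6 gene-body regions were held by 8 genes. The 3 genes with 10 or 7 regions are described with 3 of the 5 that had 6, taken by the sum of their fold enrichments. The gene with the most was evm.TU.CM024141.1.64, which spans CM024141.1:1897360-1940134 on the minus strand and had 3752, 2461 and 8530 FPKM in crabs 1, 2 and 3. It held 10 regions, 245 per Mb of body, spread from 7.44 to 42.7 kb from the TSS, and a shared promoter peak. Its strongest region, at CM024141.1:1932430-1932966, had fold enrichments of 5.87, 4.96 and 5.57, and its weakest, at CM024141.1:1904101-1904460, had 2.19, 2.87 and 2.01. The last region, CM024141.1:1897249-1897605, lay across the annotated end of the gene. The gene evm.TU.CM024167.1.147 (3562, 2968 and 3754 FPKM) held 6 regions from 11.4 to 37.3 kb and mean fold enrichments of 2.39 to 4.83.

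Such a row of regions was also present in genes with little RNA. The gene evm.TU.CM024139.1.115, 39.7 kb long, held 7 regions with mean fold enrichments of 2.99 to 7.76 and had 2.03, 1.52 and 1.22 FPKM, which came from 3, 3 and 1 reads on a model of 210 bases. The strongest, CM024139.1:4741924-4742434, had 6.97, 6.32 and 9.98. The gene evm.TU.CM024119.1.4 held 7 regions of low enrichment, 1.90 to 3.91 on average, between 12.7 and 33.9 kb from its TSS, and had 0, 30 and 0 reads in crabs 1, 2 and 3. Neither gene had a shared promoter peak. Between these extremes, evm.TU.CM024141.1.364 held 6 regions at 95.2, 51.2 and 34.3 FPKM and evm.TU.CM024165.1.349 held 6 at 146, 198 and 401 FPKM. The latter had 4 of its regions within 12.8 to 15.9 kb of the TSS.

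**Figure D5:**
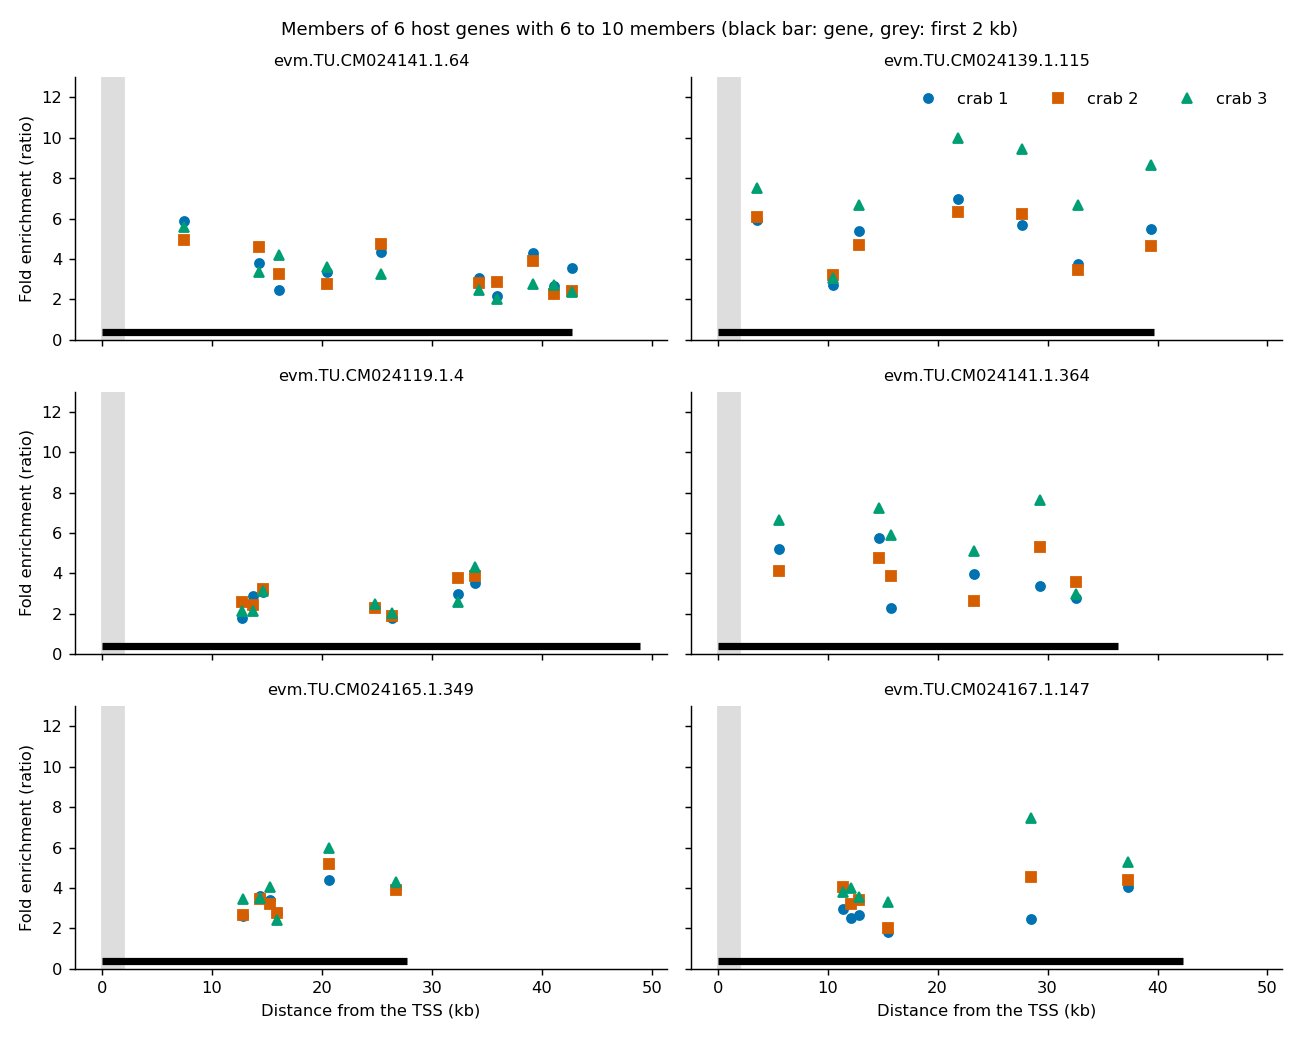
Fold enrichment of every gene-body region in each crab (circles, squares and triangles for crabs 1, 2 and 3) by distance from the TSS in kb, for 6 of the 8 genes that hold at least 6 regions. The 10 regions of evm.TU.CM024141.1.64 lie between 2.01 and 5.87, and the 7 of evm.TU.CM024139.1.115 between 2.69 and 9.98, where crab 3 has the highest value for 6 of them.

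The 8 most abundant hosts all had a shared promoter peak, and the gene-body regions of most of them were weak. The most abundant, evm.TU.CM024149.1.29, had 34584, 27667 and 44472 FPKM and held 2 regions with mean fold enrichments of 1.96 and 2.06, at 7.32 and 12.1 kb in a gene of 12.7 kb. In evm.TU.CM024102.1.206 (28034, 22111 and 44328 FPKM) the 4 regions had mean values of 1.88 to 2.52. In evm.TU.CM024107.1.221 (14147, 10834 and 55486 FPKM) the 2 regions had 2.76 and 1.82, the latter 0.473 kb before the gene end. The 5 regions of evm.TU.CM024098.1.339 (9495, 8774 and 25554 FPKM) ran from 1.89 to 3.51, and the 3 of evm.TU.CM024119.1.475 (9636, 6771 and 9606 FPKM) from 2.11 to 4.58. The crabs differed in the RNA of these genes, and 7 of the 8 were highest in crab 3. On plain read totals 3 of the 8 were highest in crab 3, since the library size behind its deposited FPKM was 0.491 times its reads.

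The other 3 abundant hosts held 1 region each. The region of evm.TU.CM024113.1.127 (2887, 2268 and 20380 FPKM) had fold enrichments of 3.62, 3.38 and 4.76, that of evm.TU.CM024102.1.207 (6465, 5988 and 12155 FPKM) had 2.18, 1.73 and 1.75, and that of evm.TU.CM024136.1.421 (3943, 5442 and 13182 FPKM) had 3.36, 6.76 and 4.30. In evm.TU.CM024113.1.127 both assays were highest in crab 3, while in evm.TU.CM024136.1.421 the region was highest in crab 2 and the RNA in crab 3 as deposited, but in crab 2 on plain read totals (4093, 6934 and 6471). The genes evm.TU.CM024102.1.206 and evm.TU.CM024102.1.207 end near each other on opposite strands, and whether the counting used strand was not stated.

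Across all hosts with a mean of at least 1 FPKM, differences between crabs in a region had little relation to those in the host's RNA. The relation was slightly negative for libraries labelled as the same crab. The rho between the deviations of fold enrichment and of expression from the mean over crabs was -0.0578, -0.0520 and -0.0515 for libraries labelled as the same crab over 1527 pairs, and ran from -0.0165 to 0.0722 for libraries of different crabs. All of these values were near 0, and the 1527 pairs share the same 6 libraries.

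The limit of 50 kb cut through a continuous range of spans. The longest hosts inside it were evm.TU.CM024149.1.27 at 49837 bases, with 5 regions and 0.302, 0.676 and 0.182 FPKM, and evm.TU.CM024164.1.18 at 49852 bases, with 1 region and 0.664, 0.106 and 0.171 FPKM. The shortest genes beyond it that held a shared region were evm.TU.CM024138.1.100 at 50004 bases, with 4 regions and 478, 407 and 472 FPKM, and evm.TU.CM024121.1.370 at 50036 bases, with 4 regions and 35.3, 23.2 and 16.4 FPKM.

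The study listed candidate genes for G protein-coupled receptors, which pass signals into the cell, and 10 of them were looked up by identifier. The study kept a candidate when at least 2 prediction tools gave the membrane-spanning structure of such a receptor. By that rule sky, the rhodopsin-like gene and HTR4 were not kept. The gene called sky was the only host among these 10, with 1 region at CM024136.1:3236382-3236970, 2.52 kb from its TSS, and fold enrichments of 3.17, 2.78 and 3.32. Its RNA level was 5.48, 5.43 and 4.53 FPKM. The gene called mth2, named for a G protein-coupled receptor of the fruit fly, had 30188 bases of body that could hold a region and no peak there in any crab, at 6.58, 7.20 and 19.7 FPKM. The rhodopsin-like gene had 2 regions, neither of them shared by all 3 crabs. GRM7, named for a glutamate receptor, HTR4, named for a serotonin receptor, gpr161 and moody span 50 kb or more and could not be hosts. Kpna6 and SSTR2, the latter named for a somatostatin receptor, had no body outside promoters, and FMRFaR, named for a neuropeptide receptor, had 931 bases and no region.

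Genes that the study found changed between molting stages in both assays were hosts more often than others. Of the 553 such genes with a body that could hold a region, 147 (26.6%) were hosts, against 1457 of 14351 other genes (10.2%). Within the expression classes above 1 FPKM the shares were 22.5% and 9.66% from 1 to 10 FPKM, 35.5% and 14.4% from 10 to 100 FPKM, and 48.0% and 20.1% above 100 FPKM. Genes of up to 1 FPKM are not in these classes, so the shares do not show that the difference holds for them. The list given as down-regulated for Mu_A against Mu_C, the post-molt and inter-molt stages, had 67 hosts among 258 such genes (26.0%). Shares varied widely between the lists. The lowest was 0 of 3 such genes, on the down-regulated list of inter-molt against pre-molt. The highest was 11 of 15, on the down-regulated list of molt against post-molt. These lists were chosen partly on these libraries and required a changed peak, so the shares are no independent evidence and were not tested.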

How the data were processed

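Inter-molt muscle of 3 crabs was measured by ATAC-seq and RNA-seq, 1 library each per crab, and equal crab numbers in the labels were read as the same animal, since the methods describe each sample as split between the assays. Peak names in the third list carry another number, so this is less sure for crab 3. For ATAC-seq the authors used skewer for trimming and BWA for alignment, filtered on mapping quality, pairing and mitochondrial origin, and ran MACS2 per library with duplicates kept. Peak position, score, fold enrichment (a ratio), −log10 p and −log10 q are deposited values, and read totals and any Tn5 shift are not given in the sources used here. The authors aligned RNA-seq reads with HISAT2 (version 2.0.5 per the submitters' processing notes), counted them with featureCounts (version 1.5.0-p3) and deposited FPKM with gene coordinates and model lengths. FPKM multiplied by length was a whole multiple of 1 step within 1% for 100% of values, which gave the reads per gene. The library sizes the authors used were 1.04, 1.27 and 0.491 times these reads, by a scaling that was not stated. A count model was not fitted, since hosts were compared with other genes inside each library.

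Peaks overlapping by at least 1 base were merged, starts were counted from 1, and a region took its strongest fold enrichment in each library. Relative position is the midpoint's distance from the TSS along the strand divided by the gene span. Pileup and background were solved from fold enrichment and −log10 p under the Poisson model of MACS2, which gave a whole pileup for at least 99.9% of regions in each library. The lowest background was 3.94, 3.44 and 3.49 fragments, a relative measure of depth, and the spread between 3 crabs sets the precision. Differences between groups of regions or genes were taken within each library and tested by an exact two-sided sign-flip permutation over 3 libraries. Spearman rho is a description.

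The regions, gene lists and tests were chosen with earlier results of these data known, and the counts by expression class and at the gene end were added after the data were seen. Genes and regions were named by rule: the 10 strongest regions, the 6 hosts with most regions (ties by summed fold enrichment), the 8 most abundant hosts, the 4 strongest regions in hosts without a read, the 4 regions that ranged most between crabs at a mean fold enrichment of at least 8, the candidate receptors of the study, and the 2 hosts on either side of the span limit. The RefSeq table of the species matched 0 identifiers, and no genome of the build was used here, so sequences and motifs planned for the regions were not analysed. Functions were tested on simulated data. The tools were numpy 2.4.6, pandas 2.3.3, scipy 1.17.1 and matplotlib 3.10.9 under python 3.11.15.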

Additional observations from a re-analysis of the deposited data

How the results depend on the processing

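The differences of fold enrichment and of host expression kept their direction under every alternative tried (16 for host expression, 10 for each fold-enrichment difference), and none can pass a threshold with 3 or fewer crabs. The number of gene-body regions was 1472 with a reciprocal overlap of 50%, 1332 with −log10 q of at least 5 and 1378 with a span limit of 30 kb, and ran from 2716 to 3367 when 1 ATAC library was left out. The median relative position was 0.521 with reciprocal overlap, 0.520 with the stricter q, 0.515 and 0.543 with promoters of 1 and 3 kb, 0.566 with the limit of 30 kb, 0.520 with EVM gene models only and 0.521 with the midpoint inside the gene, and 0.534 to 0.545 without 1 ATAC library. The log2 ratio of front to rear regions was 0.19 with the stricter q, -0.03 with the limit of 30 kb, 0.20 with gene models only and 0.20 with the midpoint rule, and 0.05 to 0.13 without 1 ATAC library, so its sign is not settled. The share of hosts with at least 1 FPKM in all libraries was 55.2% with the stricter q, 49.5% with 30 kb, 58.6% with gene models only, 45.8% on plain read totals, 60.9% without genes that had no read and 30.8% at a threshold of 5 FPKM, and 49.3% to 56.6% without 1 ATAC or RNA library. The matching shares of other genes are not given for these settings, so these shares alone do not show an excess of hosts. The log2 difference of host expression from genes with no peak in the body, 0.79, ran from 0.58 to 1.29. Among alternatives chosen after the data were seen, the log2 density ratio of genes above 10 against up to 1 FPKM, 1.43, ran from 1.23 to 1.64, and that of the last 500 bases, also 1.43, was 1.68 with the stricter q and 0.97 to 1.41 without 1 ATAC library, lowest without crab 2. Motifs were not run, since no genome of the build was used here.

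With the replicate block, that is, pairing ATAC and RNA libraries by crab number, the mean rho of deviations was -0.0538. With no replicate block, in the other 5 pairings, it was 0.00690, -0.0188, 0.0414, 0.0114 and 0.0109. The pairing entered 1 test, that of the density ratio from each crab's own peaks and own FPKM, where crabs 1 and 2, whose labels are not in doubt, gave 1.30 and 0.91. The other differences took their values from libraries of 1 assay. Those of host expression compared groups of genes set by the peaks of all crabs, the same groups in each RNA library. Their spread is therefore that of RNA levels over fixed groups of genes.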
